A study of Bos taurus with 8 samples.

Results

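Metalloproteinases and their inhibitors were described in granulosa cells of bovine dominant follicles, in the plateau phase against the growing phase. The genes were those whose symbol in the array's annotation is MMP, ADAM, ADAMTS or TIMP followed directly by a number, and each gene was read from its brightest probe. They were 57 of the 15229 genes named on the array, read by 65 of its 21790 named probes. There were 18 matrix metalloproteinases (MMP), 17 ADAM proteins, 18 ADAMTS proteins and 4 tissue inhibitors of metalloproteinases (TIMP). In bovine RefSeq, 56 were found under the same symbol, and MMP23B was found as a synonym of MMP23.

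Matrix metalloproteinases are zinc enzymes that cut collagens, laminins and other proteins outside the cell, and most are made as inactive precursors. ADAM proteins sit in the cell membrane, where the catalytically active ones release growth factors and receptors from the cell surface. ADAMTS proteins are secreted enzymes that cut proteoglycans such as versican and trim procollagens, and the 4 TIMP proteins block these enzymes by binding their active site. In the ovary they remodel the basement membrane and the follicle wall as a follicle grows, ovulates or regresses.

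Both stages were mural granulosa cells scraped from single slaughterhouse follicles of Holstein cattle, with a diameter above 9 mm, and the oestrous cycle stage of the animals was unknown. The stage was set from DNA content by flow cytometry, with a score that adds the shares of cells in G1, S and G2 and subtracts the share with less DNA than G1. Plateau follicles had intermediate scores, and growing follicles had the highest. There were 4 plateau and 4 growing follicles, whose RNA was linearly amplified before labelling, and how many animals they came from was not stated in the sources used here. Each plateau follicle was hybridized against 1 growing follicle on 2-colour EmbryoGENE arrays and again with the dyes swapped on a second slide, which gave 8 arrays for 4 follicle pairs, numbered by their slide position.

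Ratios are given as the log2 of plateau over growing, from the deposited normalized ratios, averaged over both dyes of a pair. Levels are the log2 of the normalized intensity in 1 follicle, averaged over both dyes. A level has no unit and was compared between follicles only, for the same probe, and the 2 follicles of a pair share their arrays. Median spot intensities were 187 to 287 in Cy5 and 288 to 438 in Cy3. A probe was called above background if its spot exceeded the mean + 2 SD of 757 negative and dark corner spots of that array and dye, and a gene was called measured when this held on at least 6 of the 8 arrays in either stage. The number of arrays limits the precision of every value.

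Over markers of the labelled cell type, the plateau follicle of pair 3 had the lowest mean. Its mean level over 11 granulosa markers was 9.76, against 10.56 to 12.91 in the other plateau follicles and 11.13 to 12.98 in the growing follicles. INHA and INHBA, 2 of these markers, were saturated in some of the other follicles, whose means are then lower bounds. The plateau follicle of pair 3 was the lowest for 5 of the 11, and that of pair 2 for 3. GATM was not low in the plateau follicle of pair 3, at 12.13 against 7.67, 13.48 and 7.91 in the other plateau follicles. NR5A2 was not the lowest there either, at 12.60. CYP19A1, the aromatase of oestradiol synthesis, had levels of 15.41, 8.06, 8.80 and 15.84 in the plateau follicles of pairs 1 to 4. In the growing follicles it had 11.92, 8.15, 15.78 and 14.81. Levels near 8 lie close to the background, so this marker was low in the plateau follicles of pairs 2 and 3 and in the growing follicle of pair 2. The mean level over 10 smooth muscle and fibroblast markers was 12.12 in the plateau follicle of pair 3, against 9.15 to 10.34 in the other plateau follicles and 9.37 to 10.20 in the growing follicles. That follicle was the highest for 9 of the 10 and the lowest for MYH11, at 7.26. Over 9 leukocyte markers the plateau follicles of pairs 2 and 3 had 9.45 and 9.71, against 7.86 and 8.40 in the other plateau follicles and 7.84 to 8.26 in the growing follicles. Of these 9, 3 had their highest level in the plateau follicle of pair 2 and 5 in that of pair 3. The other, PTPRC, had 8.38 to 8.45 in plateau follicles and 8.12 to 8.49 in growing follicles. ITGAM and ITGB2 were above background on no array, and CD14, CSF1R and LYZ were not measured. Over 5 endothelial markers the plateau follicle of pair 3 had 8.99, against 8.43 to 8.56 in the other plateau follicles and 8.29 to 8.57 in the growing follicles. Theca markers were not raised there. Over CYP17A1 and INSL3 the plateau follicle of pair 3 had 8.29, against 8.18 to 8.92 in the other plateau follicles. The growing follicles had 8.01 to 9.53, the highest in pair 3, and the theca marker HSD17B6 was not measured. The part that these markers had in the results below was not tested, and in tissue scrapings fewer cells of a type and less RNA per cell cannot be told apart.

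**Figure D1:**
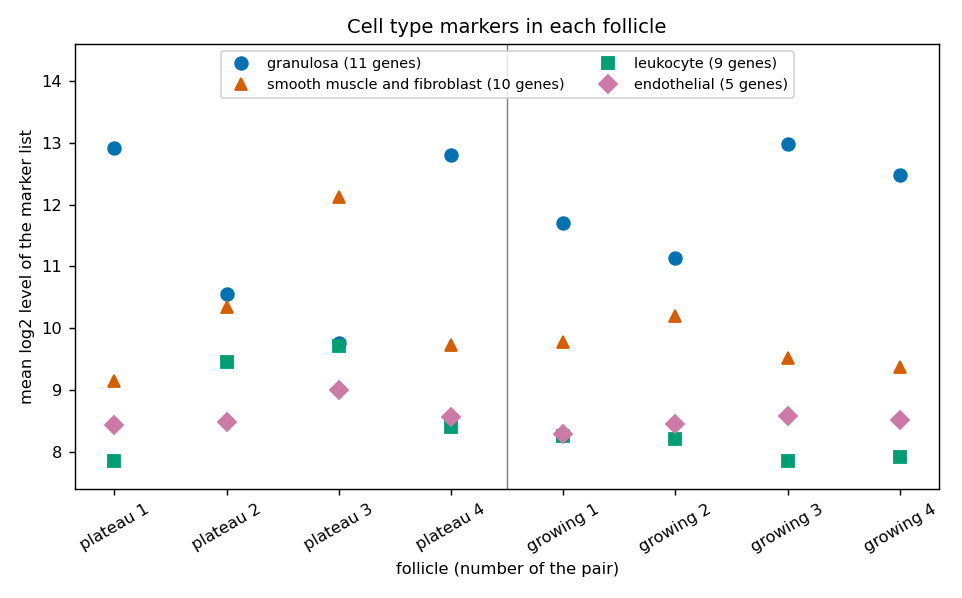
Mean log2 level of 4 cell type marker lists in each follicle, with the 4 plateau follicles left of the 4 growing follicles and each point the mean over the list's measured genes in 1 follicle. The plateau follicle of pair 3 had the lowest granulosa mean, at 9.76, and the highest smooth muscle and fibroblast mean, at 12.12.

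Of the 57 genes, 33 were measured. They were 13 of the 18 MMP genes, 11 of the 17 ADAM genes, 6 of the 18 ADAMTS genes and 3 of the 4 TIMP genes. By stage, 32 passed in plateau follicles and 33 in growing follicles, and the gene that passed in growing follicles only was ADAMTS2, a procollagen N-proteinase that was above background on 5 plateau arrays and 6 growing arrays. In both stages, 20 genes were above background on all 8 arrays. ADAM33, ADAMTS18, MMP3, MMP20 and MMP27 were above background on no array. MMP2, the gelatinase that MMP14 and TIMP2 together activate, was above background on 3 plateau arrays and 1 growing array, so no level was read for it. ADAMTS5 and ADAMTS9, 2 versican-cutting enzymes, were above background on 3 and 0 plateau arrays and on 2 growing arrays each. The 24 genes that were not measured were above background on too few arrays for a stage difference to be read. Single follicles stood higher for some of them. TIMP3 and ADAMTS6 had levels of 8.55 and 8.52 in the plateau follicle of pair 3, and ADAMTS9 had 8.27 in the growing follicle of pair 2. The mean ratios of the 24 genes ran between -0.24 and 0.20.

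No gene of the families met an adjusted p of 0.05 in limma's test over 43794 probes, where 0.0% of the probes did. The lowest adjusted p of any of the 57 genes was 0.9999. In this fit of the 4 pair means, none met the study's criterion either. It asks for a change of over 1.5-fold, a p below 0.05 before adjustment and a log2 intensity averaging 7 or more. In the same fit 1.11% of all genes met it, 0.545% with a higher level in plateau follicles and 0.565% with a lower one. With the 8 arrays as independent samples, MMP19 and MMP23B met it (limma's unadjusted p = 0.0064 and 0.0433). That fit counts the 2 dye-swap arrays of a pair as separate samples, though they hold the same RNA. In it 743 of the 43794 probes met the criterion, against 313 in the fit of pair means. The study's own calls for these genes were not compared. Unadjusted p-values under 0.05 were found for 2 genes, ADAM10 and MMP20, against 3.39% of all genes, and MMP20, the enamel proteinase, was at background. Both were singled out after their values were seen.

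Among the 33 measured genes, 19 had a mean ratio above 0 and 14 had one below 0, where 51.1% of all measured genes had a ratio above 0. Of all 57 genes, 28 had a ratio above 0, against 51.0% of all genes. The median ratio of the measured genes was 0.01, and that of all 10989 measured genes was 0.01. In 25 of the 33 the mean ratio was smaller than 0.25 in size. MMP19 was the measured gene with a ratio above 0 in all 4 pairs, and ADAMTS3 and MMP12 were those with a ratio below 0 in all 4. These are 1 and 2 of 33, where 4.58% and 3.83% of all measured genes did the same. Counting the genes at background too, 2 genes were above 0 in all pairs (MMP19 and ADAMTS17) and 5 were below 0 (ADAMTS3, MMP12, ADAMTS8, ADAMTS14 and MMP20), against 4.77% and 4.24% of all genes. The levels of the 4 plateau follicles and the 4 growing follicles overlapped for each of the 57 genes, while 1.52% of all genes had no overlap.

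The stage means were close, but single follicles differed widely for a few of these genes. Among the measured genes the SD of the ratio over the 4 pairs was above 1 in 8 of 33 (24.2%), against 15.9% of all measured genes. Those 8 were TIMP1, TIMP2, TIMP4, MMP11, MMP14, MMP23B, ADAMTS1 and ADAM17. The median SD was lower than over all genes, at 0.36 against 0.47, and in 13 of the 33 genes the SD was below 0.25. All of these 13 but MMP25 had a mean log2 intensity of at most 8.39, so the low SDs were mostly those of dim probes. The dyes added less for most genes, since the array of either dye lay a median of 0.12 from the mean of its pair over the measured genes. The median distance of a gene was larger than its SD for ADAM15 (0.56 against 0.41) and MMP16 (0.40 against 0.25). This held for MMP1, MMP12, MMP15 and ADAM3A too. The level of a gene spanned more than 2 log2 units among the 8 follicles in 8 of the 33 genes (24.2%), against 14.4% of all measured genes, and less than 1 unit in 18 of them.

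**Figure D2:**
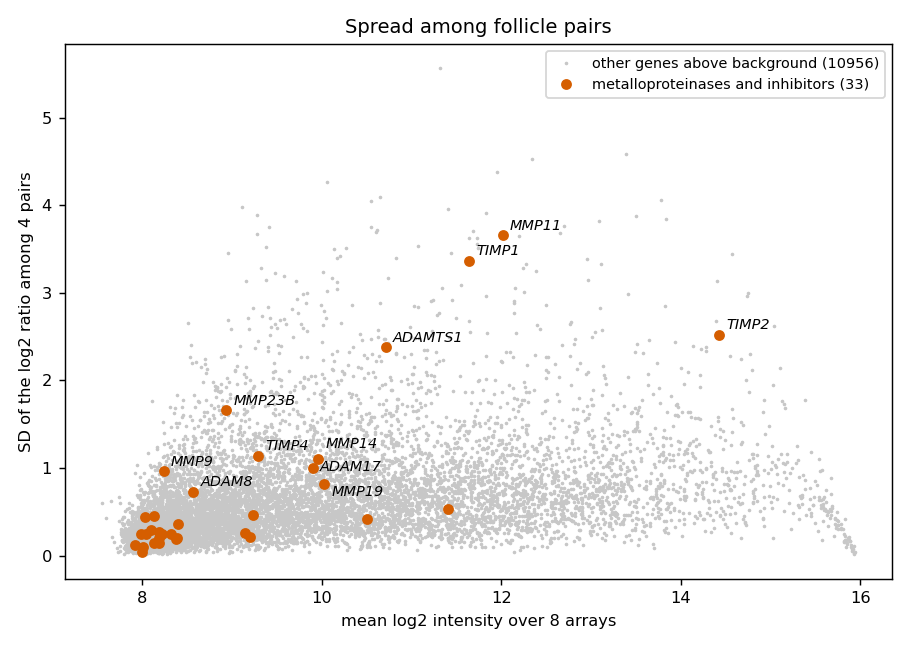
SD of the log2 ratio among the 4 follicle pairs against the mean log2 intensity over the 8 arrays, for the 33 measured metalloproteinase and inhibitor genes and the 10956 other measured genes. MMP11, TIMP1, TIMP2 and ADAMTS1 had SDs of 2.38 to 3.66, and 13 of the 33 lay below 0.25.

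By family, the median SD was highest for the inhibitors, at least 2.52 over only 3 measured TIMP genes, against 0.25 to 0.36 in the other families. The 3 TIMP probes were bright, with mean log2 intensities of 11.64, 14.43 and 9.29, while many probes of the other families were dim. Bright genes of other families varied as widely, with SDs of 3.66 for MMP11 and 2.38 for ADAMTS1. Family and brightness cannot be told apart here. No TIMP gene differed between the stages beyond the spread among follicles. TIMP1, the inhibitor of most secreted MMPs, had levels of 9.30, 12.96, 15.94 and 8.55 in the plateau follicles of pairs 1 to 4. In the growing follicles it had 11.29, 15.28, 11.00 and 8.84. The stages overlapped over nearly their whole range, and the level spanned 7.39 log2 units among the 8 follicles, the widest of the 33 measured genes. The ratios by pair were -2.04, -2.32, 4.94 and -0.32, with a mean of 0.07 ± 3.36 (SD, n = 4 pairs; exact sign-flip test, two-sided, p = 1.0). Without pair 3, the one with a ratio above 0, the mean ratio was -1.56. TIMP1 then met the study's criterion (limma's unadjusted p = 0.0301, adjusted p = 0.9999). In that setting 423 of 43794 probes met it, against 313 with all 4 pairs. A second TIMP1 probe gave ratios of -2.09, -2.14, 6.14 and 0.13 by pair. The 3 highest TIMP1 levels lay in the 3 follicles with the lowest CYP19A1 levels, namely the plateau follicles of pairs 3 and 2 and the growing follicle of pair 2. This was noticed after the values were seen, and CYP19A1 is 1 of 11 granulosa markers. Those 3 follicles were also the lowest for FSHR, FOXL2, INHBB and HSD17B1. They were not the lowest 3 for AMH, INHA, INHBA, FST, NR5A2 and GATM.

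TIMP2, which blocks MMPs and also brings the MMP2 precursor to MMP14, had levels of 15.89, 12.83, 14.48 and 15.01 in the plateau follicles. The growing follicles had 13.09, 16.00, 14.39 and 13.76, and its spot was saturated on both arrays of the growing follicle of pair 2, whose level is therefore a lower bound. By pair, the measured ratios were 2.79, -3.16, 0.10 and 1.24, of which that of pair 2 is an upper bound. The measured mean was 0.24 ± 2.52 (SD, n = 4 pairs; exact sign-flip test, two-sided, p = 0.875), so an unsaturated reading would give a mean of at most 0.24 and an SD of at least 2.52. Pairs 1 and 2 were thus opposite in direction. In pair 1, TIMP1 and TIMP2 also went opposite ways within the same arrays, with ratios of -2.04 and 2.79, while in pair 2 both were below 0.

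TIMP4 had levels of 9.31, 9.05, 9.07 and 8.99 in the plateau follicles. In the growing follicles it had 8.88, 11.06, 9.10 and 8.87, so the growing follicle of pair 2 alone was high. The mean ratio was -0.38 ± 1.14 (SD, n = 4 pairs; exact sign-flip test, two-sided, p = 0.875), and 0.18 without pair 2. The growing follicle of pair 2 thus held the highest TIMP2 and TIMP4 levels and the second highest TIMP1 level. TIMP3, which is bound to the matrix and also blocks ADAM17 and several ADAMTS enzymes, passed the background limit on 3 of 8 arrays for either stage and was not measured. Its ratios by pair were -0.09, 0.02, 0.88 and -0.02. In RefSeq, the 4 TIMP genes overlap SYN1, CEP295NL, SYN3 and SYN2, in the order TIMP1 to TIMP4. SYN1 had levels of 7.76 to 8.05 in plateau follicles and 8.001 to 8.22 in growing follicles, which span far less than those of TIMP1. MMP14 overlaps RBM23 and ADAM8 overlaps SORCS3, and whether their probes also read these genes was not tested.

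**Figure D3:**
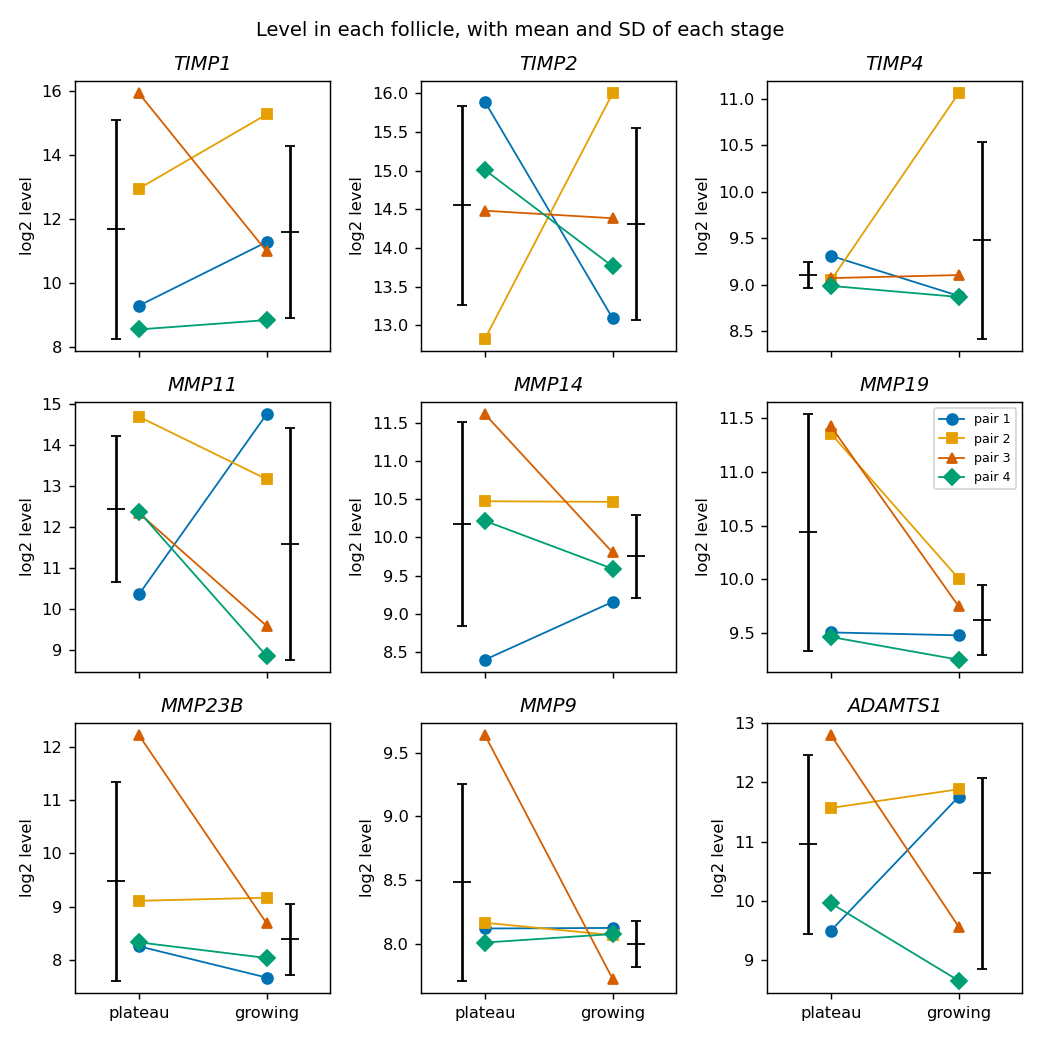
Log2 level of 9 genes in each follicle, plateau left and growing right, with lines joining the follicles hybridized together and bars giving the mean and SD of each stage (n = 4 follicles). No gene separates the stages, and TIMP1 ran from 8.55 to 15.94 within the plateau follicles.

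Among the secreted MMPs, MMP11 differed most between follicles. MMP11 (stromelysin 3) is unusual in leaving the cell already active, since furin-type enzymes cut its precursor inside the cell. It had levels of 10.36, 14.68, 12.34 and 12.38 in the plateau follicles. The growing follicles had 14.74, 13.16, 9.60 and 8.87. The plateau follicle of pair 2 and the growing follicle of pair 1 had nearly the same high level, so the highest values lay on both sides. The ratios by pair were -4.39, 1.52, 2.75 and 3.78, with a mean of 0.92 ± 3.66 (SD, n = 4 pairs; exact sign-flip test, two-sided, p = 0.75). The ratio was above 0 in 3 of 4 pairs. Without pair 1, the one with a ratio below 0, the mean was 2.69 and MMP11 met the study's criterion (limma's unadjusted p = 0.0054, adjusted p = 0.688). In that setting 1551 of 43794 probes met it, against 313 with all 4 pairs. Without pair 4 the mean was -0.04.

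MMP19, a secreted MMP that cuts basement membrane proteins, was the measured gene whose ratio was above 0 in every pair. It had levels of 9.50, 11.36, 11.42 and 9.46 in the plateau follicles, and 9.48, 10.01, 9.75 and 9.25 in the growing follicles. The plateau follicles of pairs 2 and 3 lay above every growing follicle, and those of pairs 1 and 4 lay among them. The ratios by pair were 0.03, 1.36, 1.68 and 0.23. The mean was 0.82 ± 0.82 (SD, n = 4 pairs), a fold of 1.77 (limma's unadjusted p = 0.0586, adjusted p = 0.9999; exact sign-flip test, two-sided, p = 0.125, the smallest that 4 pairs allow). It did not meet the criterion. It did when the 8 arrays were fitted with the follicle pair as a block (limma's unadjusted p = 0.0101, adjusted p = 0.814). There 698 of 43794 probes met it, against 313 in the fit of pair means. The block takes 1 correlation, 0.62, for all probes. For MMP19 either dye lay a median of 0.12 from the pair's mean, against the SD of 0.82 among pairs. Its dye-swap arrays thus still counted in part as separate samples. The plateau follicles of pairs 2 and 3 were also those with the highest leukocyte marker means, at 9.45 and 9.71, and without pair 3 the mean ratio of MMP19 was 0.54.

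MMP9, a gelatinase abundant in leukocytes, stood near the background except in 1 follicle. It had levels of 8.12, 8.16, 9.64 and 8.01 in the plateau follicles, and 8.12, 8.07, 7.72 and 8.07 in the growing follicles. Its mean ratio of 0.49 ± 0.96 (SD, n = 4 pairs; exact sign-flip test, two-sided, p = 0.5) rested on the plateau follicle of pair 3, and without pair 3 it was 0.01. MMP23B, a small MMP with an unusual cysteine-rich end in place of the common C-terminal domain, had levels of 8.26, 9.11, 12.21 and 8.33 in the plateau follicles. The growing follicles had 7.67, 9.17, 8.69 and 8.04. The plateau follicle of pair 3 again held the one high value. By pair, the ratios were 0.55, -0.06, 3.55 and 0.29, with a mean of 1.08 ± 1.66 (SD, n = 4 pairs; exact sign-flip test, two-sided, p = 0.25), a fold of 2.12, and 0.26 without pair 3. With the follicle pair as a block it met the criterion (limma's unadjusted p = 0.0485, adjusted p = 0.99995). Either dye lay a median of 0.14 from the pair's mean, against the SD of 1.66. As for MMP19, the dye-swap arrays thus still counted in part as separate samples. MMP12, the macrophage elastase, was near the background, with ratios of -0.11, -0.11, -0.03 and -0.10 by pair. All 4 were below 0, but its mean of -0.09 was smaller than 0.24, the farthest that either dye lay from a pair's mean. MMP1 and MMP7 had mean ratios of 0.01 and 0.08, and SDs of 0.10 and 0.20. MMP1, MMP3, MMP12 and MMP13 are next to each other in RefSeq, as are MMP7, MMP20 and MMP27, and all these genes were at or near the background here.

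Of the membrane-type MMPs (MMP14, MMP15, MMP16, MMP17, MMP24 and MMP25), MMP14 was the one that varied most. MMP14 (MT1-MMP) cuts fibrillar collagen at the cell surface and activates MMP2. It had levels of 8.40, 10.47, 11.61 and 10.21 in the plateau follicles, and 9.16, 10.46, 9.80 and 9.59 in the growing follicles. The plateau stage held both the highest and the lowest level. By pair, the ratios were -0.80, 0.01, 1.81 and 0.67, with a mean of 0.42 ± 1.10 (SD, n = 4 pairs; exact sign-flip test, two-sided, p = 0.625), and -0.04 without pair 3. MMP17, which a lipid anchor holds to the membrane, had a mean ratio of 0.11 ± 0.53 and ratios from -0.40 in pair 2 to 0.86 in pair 3. MMP25, the other lipid-anchored MMP, had levels of 10.17, 9.59, 8.43 and 8.53 in the plateau follicles, and 10.36, 9.41, 8.40 and 8.78 in the growing follicles. Its levels followed the pair and not the stage, with a mean ratio of -0.06 ± 0.21. Follicles of a pair share their arrays, so follicle and array cannot be told apart in such a pattern. The transmembrane MMP15, MMP16 and MMP24 had mean ratios of 0.13, -0.06 and -0.01, with SDs of 0.19 to 0.25. For MMP15 and MMP16 either dye lay a median of 0.21 and 0.40 from the pair's mean.

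**Figure D4:**
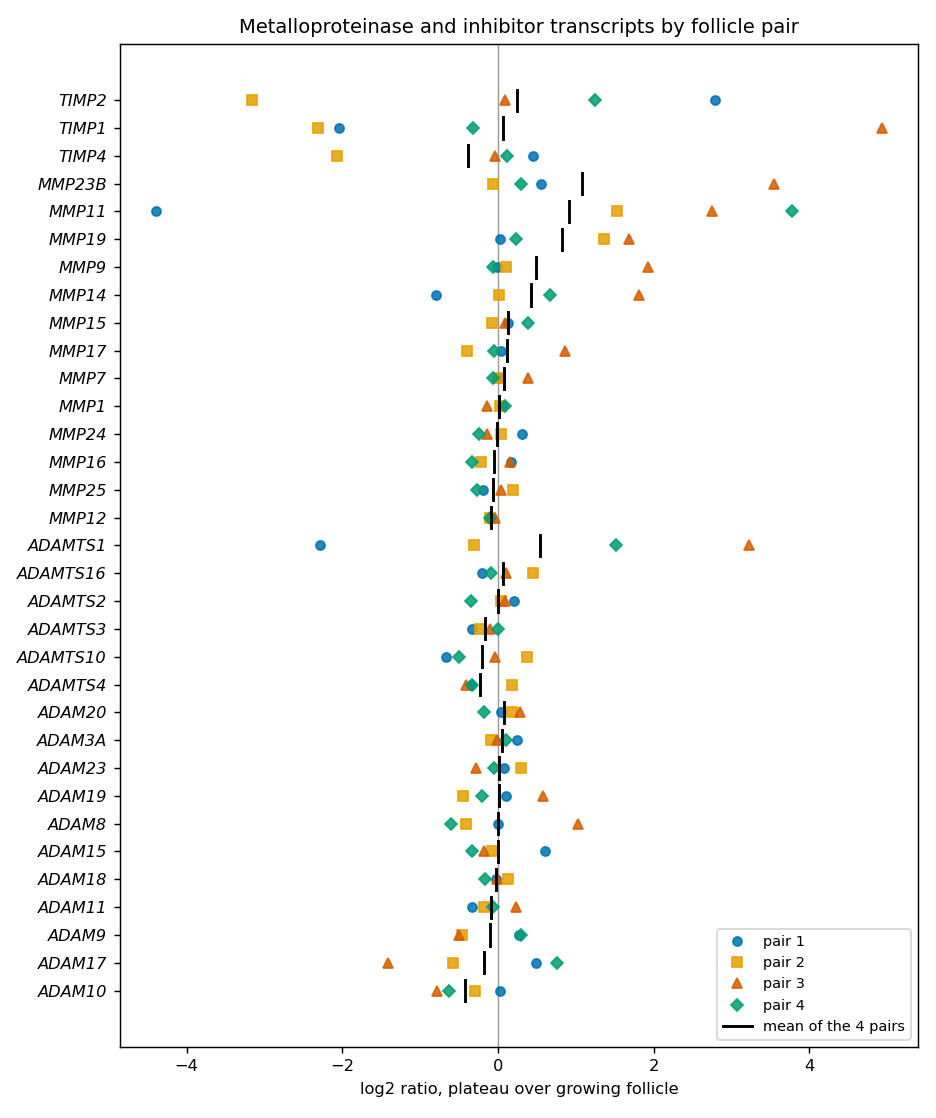
Log2 ratio of plateau over growing in each of the 4 follicle pairs for the 33 measured genes, ordered by family and by mean, with black bars for the mean. Pair 3 (triangles) gave the highest ratio in 13 of the 33 genes, against 24.3% of all measured genes. It gave a ratio above 1 in 8 of the 33 (24.2%), against 8.15%.

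Among the ADAMTS genes, ADAMTS1 alone had a wide spread. ADAMTS1, which cuts versican and in mice is induced in granulosa cells by the LH surge, had levels of 9.50, 11.57, 12.80 and 9.96 in the plateau follicles. In the growing follicles it had 11.76, 11.88, 9.57 and 8.66. The stages overlapped fully but for the highest and the lowest follicle. The ratios by pair were -2.29, -0.31, 3.23 and 1.52, with a mean of 0.54 ± 2.38 (SD, n = 4 pairs; exact sign-flip test, two-sided, p = 0.75), and -0.36 without pair 3. Its RefSeq neighbour ADAMTS5 was not measured. ADAMTS3, a procollagen N-proteinase, was below 0 in every pair, at -0.33, -0.23, -0.11 and -0.00. Its levels were 8.07, 8.05, 8.28 and 8.04 in the plateau follicles and 8.39, 8.28, 8.39 and 8.05 in the growing follicles, so they overlapped. The mean of -0.17 ± 0.14 (SD, n = 4 pairs; exact sign-flip test, two-sided, p = 0.125) did not pass, and either dye lay up to 0.33 from a pair's mean. ADAMTS4, a proteoglycanase, had a mean of -0.23 ± 0.27. ADAMTS10, which binds fibrillin, had -0.21 ± 0.47. ADAMTS2 and ADAMTS16 had -0.00 and 0.06.

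The ADAM genes differed little between the stages on average. Of the 11 measured, 10 had a mean ratio smaller than 0.25 in size, and the median SD was 0.36. The exception in mean was ADAM10, the constitutive sheddase of Notch and cadherins, with levels of 8.02, 8.16, 8.30 and 8.34 in the plateau follicles and 7.99, 8.46, 9.05 and 8.93 in the growing follicles. The growing follicles of pairs 3 and 4 were the high ones. The ratios were 0.02, -0.29, -0.79 and -0.63, with a mean of -0.42 ± 0.36 (SD, n = 4 pairs; limma's unadjusted p = 0.0489, adjusted p = 0.9999; exact sign-flip test, two-sided, p = 0.25), a change below the 1.5-fold of the criterion. ADAM17 (TACE), which releases tumour necrosis factor and the EGF-like ligands, had levels of 10.15, 9.42, 9.19 and 10.49 in the plateau follicles and 9.67, 9.98, 10.55 and 9.77 in the growing follicles. By pair it had ratios of 0.49, -0.57, -1.41 and 0.76, with a mean of -0.18 ± 1.002, and it was the measured gene with a ratio below -1 in pair 3. A second measured ADAM17 probe had ratios of 0.44, 0.34, -1.18 and 1.28 and a mean of 0.22, so the probes disagreed in pair 2 and in the sign of the mean. ADAM8, which is known from leukocytes, had a mean of 0.00 ± 0.73 and its highest ratio in pair 3, at 1.03. A second ADAM8 probe gave 0.14 there.

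ADAM9, ADAM15 and ADAM19, which are active membrane proteinases, had mean ratios of -0.10, 0.00 and 0.01, with SDs of 0.44, 0.41 and 0.45. For ADAM15 either dye lay a median of 0.56 from the pair's mean. ADAM11 and ADAM23, which lack a working catalytic site, had -0.09 and 0.01. ADAM18, ADAM20 and ADAM3A, which are known from sperm and testis, passed as measured at levels near the background, with ratios of -0.02, 0.08 and 0.06. ADAM2 and ADAM32, also known from sperm, and ADAM21 were not measured. In all, 6 of the 57 genes had more than 1 probe, and 3 of their 8 other probes gave a mean ratio of the opposite sign.

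Across the measured genes, the wide ratios gathered in pair 3. A ratio above 1 was found in 1, 2, 8 and 3 of the 33 genes in pairs 1 to 4. For pair 3 this was 24.2% of the genes, against 8.15% of all measured genes, and for the other pairs it was 3.03%, 6.06% and 9.09%, against 6.397%, 7.59% and 4.796%. A ratio below -1 was found in 3, 3, 1 and 0 genes (9.09%, 9.09%, 3.03% and 0%), against 5.55%, 7.92%, 7.50% and 4.16% of all measured genes. Of the 12 genes with an SD above 0.5, 8 had their highest ratio in pair 3. These 12 were chosen by the spread of the same ratios. Of the 33 genes, 13 had their highest ratio in pair 3, against 24.3% of all measured genes. On the level scale, the plateau follicle of pair 3 had the highest level of the 8 follicles in 12 of the 33 genes (36.4%), against 15.6% of all measured genes. These were TIMP1, MMP7, MMP9, MMP14, MMP16, MMP17, MMP19, MMP23B, ADAMTS1, ADAMTS2, ADAM8 and ADAM19. This follicle is the one with the lowest granulosa marker mean given above. It also had the highest means of the smooth muscle and fibroblast list and of the leukocyte list, in which single markers differed. Without pair 3, 15 of the 33 genes had a mean ratio above 0 in place of 19, the median ratio was -0.03, and 5 genes had an SD above 1.

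**Figure D5:**
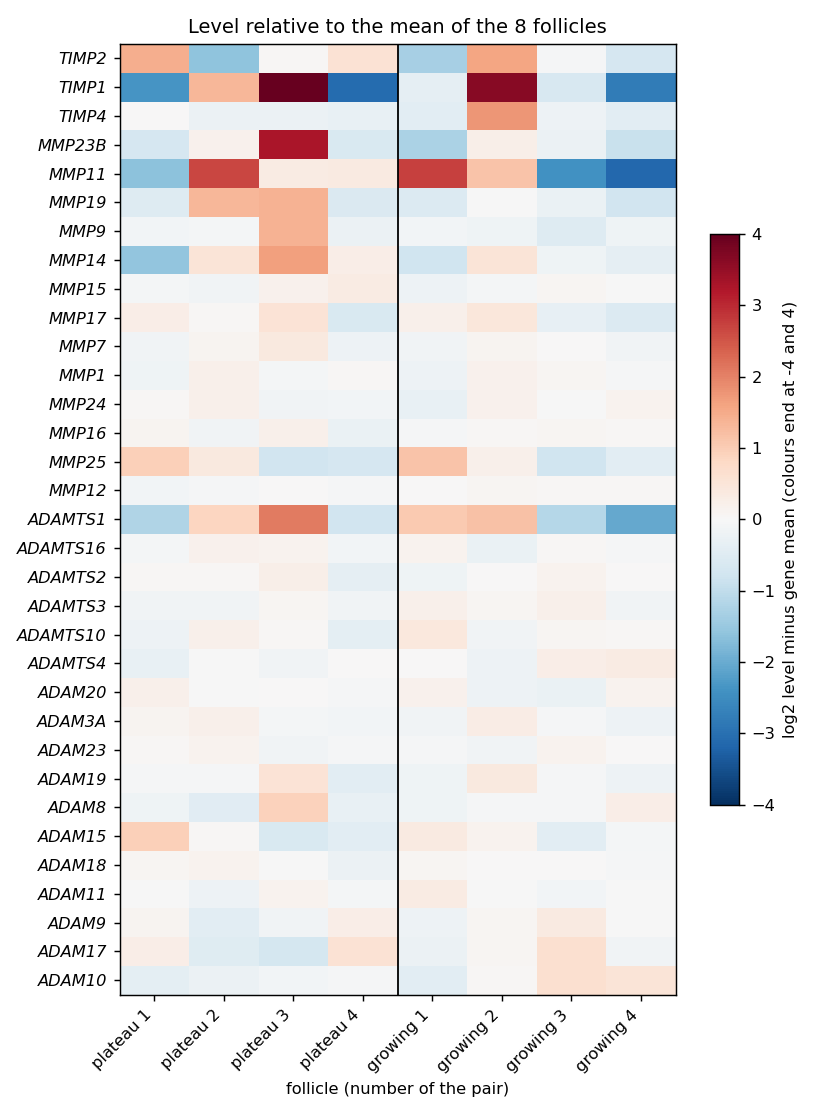
Log2 level of each measured gene in each follicle minus its mean over the 8 follicles, with plateau follicles left of the line and growing follicles right of it. The plateau follicle of pair 3 held the highest level for 12 of the 33 genes (36.4%), against 15.6% of all measured genes. The growing follicle of pair 2 held it for 4 (12.1%), among them TIMP2 and TIMP4, against 13.5%.

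Genes that work with these families were set beside them. Of 23 listed genes that activate or hold back proteinases, 19 were on the array and 14 were measured. None met the study's criterion, and 9 had a mean ratio above 0 and 5 one below 0. THBS1, a matrix glycoprotein that binds MMPs, had ratios of -0.70, 1.02, 5.96 and 0.11 by pair. PLAUR, the urokinase receptor, had 0.29, -2.65, 4.38 and -0.28, and PLAT, tissue plasminogen activator, had 3.30, -4.77, 3.31 and 2.44. Their SDs among pairs were 2.99, 2.92 and 3.92, against 3.36 for TIMP1, and for PLAUR and PLAT, as for TIMP1, the ratio was below 0 in pair 2 and above 0 in pair 3. A2M, a circulating proteinase trap, had 0.12, -0.14, 2.75 and 0.43. FURIN, which activates MMP11 and the membrane-type MMPs, had a mean of -0.09 ± 0.21. It lay near the background, above it on 3 plateau arrays and 6 growing arrays.

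Of 20 listed matrix proteins that these enzymes cut, all 20 were on the array and 18 were measured, with 13 mean ratios above 0 and 5 below 0. None met the criterion. FN1, fibronectin, had ratios of 1.19, -3.77, 5.76 and 2.46, and COL1A2, a chain of type I collagen, had -0.07, -2.14, 6.11 and 1.43. VCAN, versican, had 2.06, -2.26, -2.67 and 1.32, which is opposite in sign to its proteinase ADAMTS1 in pairs 1 and 3 and the same in pairs 2 and 4. Other matrix genes had a narrow spread, but NID1, VWF and NCAN lay near the background, which limits their ratios. Their mean log2 intensities were 8.02, 7.90 and 8.06, and that of BCAN was 9.36. NID1, nidogen of the basement membrane, had 0.49, 0.54, 0.35 and 0.25 and a mean of 0.40 ± 0.13, below the fold of the criterion. VWF, NCAN and BCAN had SDs of 0.03, 0.14 and 0.33. Of 20 listed membrane proteins that ADAM10, ADAM17 and MMP14 release, 18 were on the array and 11 were measured, with 7 ratios above 0 and 4 below 0. NOTCH2 met the criterion, at 1.53, 0.43, 0.12 and 1.18 by pair and a mean of 0.81 ± 0.65, as 1 of 18 genes where 0.545% of all genes met it upwards. BTC, betacellulin, had a mean of -0.44 ± 0.35, but it was above background on 1 plateau array and 6 growing arrays only. The relatives that the naming rule leaves out were ADAMDEC1 and the ADAMTS-like genes, of which 6 were on the array and 3 were measured. Those 3, ADAMDEC1, ADAMTSL4 and ADAMTSL5, all had ratios above 0 in all 4 pairs, as 4.58% of all measured genes did, with means of 1.24, 0.33 and 0.40. ADAMDEC1 met the criterion, with a mean of 1.24 ± 0.72 and an adjusted p of 0.9999. Their highest ratios were in pair 3, at 2.10, 1.13 and 0.72.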

How the data were processed

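The authors scanned the arrays and deposited raw median intensities for spots and for the background around them. They also deposited log2 ratios of Cy5 over Cy3, made by background subtraction, loess and quantile normalization. Repeating these steps gave the deposited ratios (r = 0.999656 to 0.999911 per array), which fixed their direction. Ratios were turned to plateau over growing, and 2 arrays at the same slide position were treated as the dye swap of 1 follicle pair. Over probes of mean log2 intensity 9 or more, deviations from the slide mean correlated at 0.92 to 0.97 for the same position and at -0.50 to -0.16 otherwise. Turned ratios over all probes correlated at 0.58 to 0.78 and at -0.44 to 0.02. The 4 pair means were tested against 0 with lmFit and eBayes (limma 3.58.1, R 4.3.3), adjusted by Benjamini-Hochberg over 43794 probes. Levels came from intensities after normexp (offset 50), loess and quantile normalization. The fit was tested on simulated data.

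The members and lists were chosen with earlier results of these data known. Values by pair were given for TIMP genes, for genes at the criterion, and for measured genes with a mean ratio above 1 in size or 1 direction in all pairs. ADAM8, ADAM10, ADAM17, ADAMTS1, MMP9, MMP11, MMP14, MMP17 and MMP25 and the genes named from the partner lists were added after their values were seen. Sequences were not used here, and RefSeq positions served only to find neighbouring and overlapping genes. The alternatives were another background correction, no quantile step, dim probes left out, 8 arrays with and without a block, the mean over probes, each slide alone, and each pair left out.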

Additional observations from a re-analysis of the deposited data

Results flagged for a closer look

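In 45 groups of 4 values (the pair ratios, the plateau levels and the growing levels of the 15 genes with values by pair under the rule or with an SD above 0.5), 8 groups held a value far from the other 3 by Dixon's test. Chance gives about 1 in 20 such groups when they are independent and not chosen by their values. Here 7 of the genes were chosen for their SD and the 3 groups of a gene share values, so the count of 8 is not set against that share. Pair 3 held 7 of the 8 values. MMP23B, MMP9 and TIMP3 had pair 3 ratios of 3.55, 1.93 and 0.88, the highest of their 4 pairs, and TIMP3 was not measured. The MMP12 ratio of pair 3, -0.034, was set apart from -0.11, -0.11 and -0.10 in the other pairs, near the background. MMP9 had its highest plateau level, 9.64, and its lowest growing level, 7.72, in pair 3. ADAMTS3 had its highest plateau level there, 8.28. The remaining value was the TIMP4 level of the growing follicle of pair 2, 11.06.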

How the results depend on the processing

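No member passed an adjusted p of 0.05 under any alternative. With 8 arrays as independent samples, 2 members met the criterion upwards in place of 0, MMP19 and MMP23B. Both also met it with the follicle pair as a replicate block and a dye term, where no other call of a member changed. Neither fit takes the pair mean as the only unit, so the dye-swap arrays add to the apparent sample size. With slide 1 alone 1 member met it upwards (ADAMTS5, not measured, 0.68), and with slide 2 alone 1 did upwards (MMP19) and 1 downwards (ADAMTS5, -0.74). Leaving out each pair gave 0 to 2 upwards (MMP11 and MMP19 without pair 1) and 0 to 1 downwards (TIMP1 without pair 3). Over all probes the count at the criterion was 313, against 743 with 8 independent arrays and 698 with the block. It was 1050 and 894 with slides 1 and 2 alone. Without pairs 1, 2, 3 and 4 it was 1551, 828, 423 and 332. The members above 0 in all pairs, 2, became 1 with dim probes left out, 6 and 4 with slides 1 and 2 alone, and 4 to 8 with a pair left out. Those below 0 in all pairs, 5, became 2, 11 with slide 1 alone, and 5 to 12. A left-out pair leaves 3 signs to match, and leaving out dim probes leaves 33 members, so those counts move by construction.

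Mean ratios turned sign for TIMP2 (-0.039) and MMP12 (0.032) with slide 2 alone, for ADAM8 (-0.32) and MMP17 (-0.10) with slide 1 alone, and for ADAM8 (-0.0025) with normexp. The cause was not tested. With a pair left out, the ranges that crossed 0 were -1.56 to 0.86 for TIMP1, -0.61 to 1.38 for TIMP2, -0.030 to 0.29 for TIMP3, -0.66 to 0.18 for TIMP4, -0.50 to 0.23 for ADAM17, -0.34 to 0.20 for ADAM8, -0.36 to 1.48 for ADAMTS1, -0.039 to 2.69 for MMP11, -0.039 to 0.83 for MMP14 and -0.14 to 0.28 for MMP17. MMP19, MMP23B, MMP9, ADAMTS3 and MMP12 kept their sign with each pair left out. TIMP3 has no value with dim probes left out. Signal over background limits the 24 members that were not measured, and 4 pairs limit every test.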
